A study of Mus musculus with 8 samples.

Results

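Epithelial-mesenchymal transition (EMT) was read here from 10 genes: the transcription factors Snai1, Snai2, Twist1, Twist2, Zeb1 and Zeb2, the classical cadherins Cdh1, Cdh2 and Cdh3, and the intermediate filament gene Vim. They were picked by name with earlier results of these data known, and all 10 were found among the 23235 genes of the authors' deposited table, each with the status OK that marks a tested gene. The samples were 3 tongue squamous cell carcinomas raised with the DNA-adduct-forming carcinogen 4-nitroquinoline 1-oxide (4-NQO) and 5 normal tongues not treated with it. All 8 samples came from female C57BL/6 mice. The labels used here give no dose or length of exposure, no age, and no statement that each sample is a separate animal. Poly(A) RNA was sequenced, and the authors' deposited table holds 1 value per gene for the 3 carcinomas together and 1 for the 5 normal tongues together. The value in each sample, its spread and its depth are therefore unknown, and whether the groups overlap cannot be seen for any gene.

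EMT is a programme in which epithelial cells loosen their cell-cell junctions and take on features of mesenchymal cells. The SNAI, TWIST and ZEB factors bind E-box elements in DNA, and several of them repress Cdh1, the gene of E-cadherin, which holds epithelial cells together at adherens junctions. In a cadherin switch E-cadherin gives way to N-cadherin, the product of Cdh2, while Vim, the gene of vimentin, is raised. In stratified epithelium such as that of the tongue, Snai2 and the P-cadherin gene Cdh3 are also genes of normal basal cells, so neither is a marker of mesenchymal cells alone.

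Cdh3 and Snai2 rose in the carcinomas, and no other member of the set was called in either direction. Cdh1, the gene whose loss defines the switch, had a value 2.35-fold that of normal tongue and was not called, and Cdh2 was the lowest member in both groups. The values of Zeb1, Zeb2, Twist1, Twist2, Cdh2 and Vim were all lower in the carcinomas without passing the test. A gene was called where the authors' q-value was under 0.05, which was the case for 6.26% of the 15783 tested genes in the authors' deposited table, 3.07% higher in carcinomas and 3.19% lower. Against that background, 2 of the 10 members were called higher and 0 lower by the authors' q-value. At an unadjusted p under 0.05 a further 4 members stood out, Cdh1 on the higher side and Zeb1, Zeb2 and Cdh2, 3 members, on the lower, while 20.7% of all tested genes reached that level. A Benjamini-Hochberg adjustment of the authors' p-values over all tested genes called the same 2 members and 0 lower. The median log2 fold change of the 10 members was −0.67, and that of all tested genes was −0.04.

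**Figure D1:**
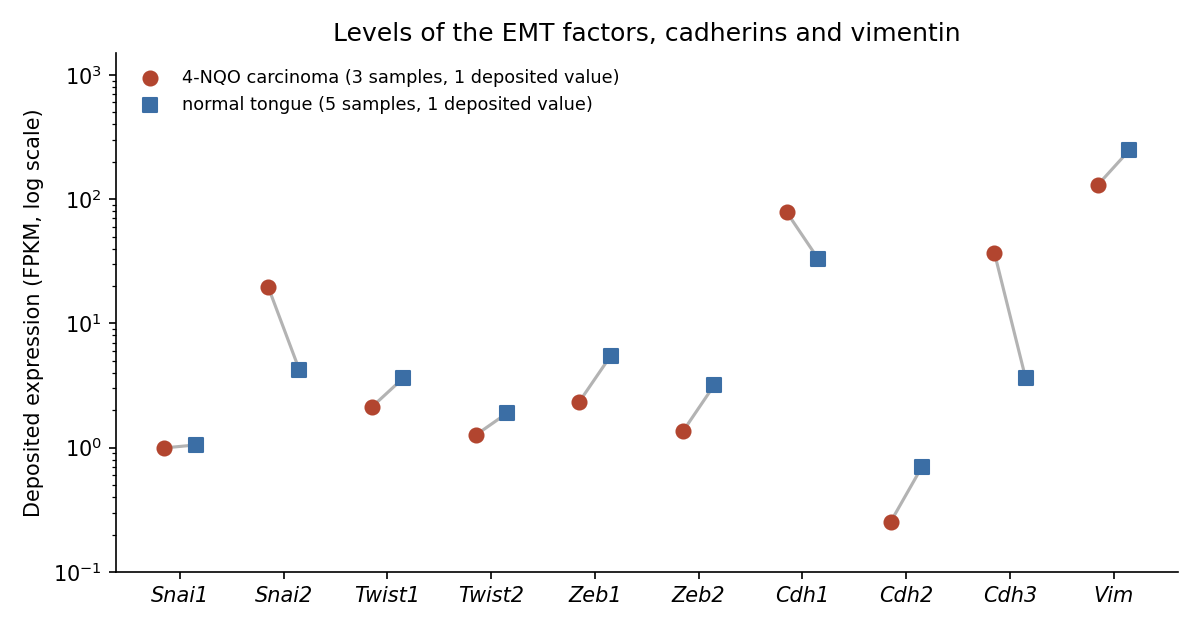
Deposited expression of the 10 members in FPKM on a log scale, with the 4-NQO carcinomas as circles on the left and normal tongue as squares on the right of each pair; each point is the authors' single value for a group, so there is no error bar. Cdh3 and Snai2 have the steepest rises in the carcinomas (37.0 against 3.66 FPKM and 19.6 against 4.23 FPKM), and Cdh2 is the lowest member in both groups.

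Among the SNAI factors, which are zinc-finger repressors, the paralogs had unlike values. Snai2, which encodes SLUG, was listed at 19.6 FPKM in carcinomas and 4.23 FPKM in normal tongue in the authors' deposited table (locus 16:14705952-14709475). FPKM, the unit these values were taken to be in since the header names none, is fragments scaled to transcript length and to the number of mapped fragments, so levels of different genes can be set side by side. The log2 fold change of Snai2 in the authors' deposited table was 2.21 ± 0.50 (q = 0.000975), where ± here and below is the standard error implied by the authors' test statistic, with a 95% interval of 1.22 to 3.20. Snai2 stood above 79.0% of tested genes in carcinomas and above 42.3% in normal tongue. Snai1, which encodes SNAIL, the family member most used as an EMT marker, was listed at 0.996 FPKM in carcinomas and 1.05 FPKM in normal tongue in the authors' deposited table (locus 2:167363727-167368311). Its log2 fold change there was −0.08 ± 0.75 (q = 1.00), with an interval from −1.55 to 1.39. That interval is wide: with such a standard error a log2 change of 2.41 would have been needed for a call. The change of Snai2 exceeded that of Snai1 by 2.29 on the log2 scale (95% interval 0.52 to 4.06). Intervals of differences between genes treat the standard errors as independent, which the deposited values cannot show. Snai2 had 19.7 times the FPKM of Snai1 in carcinomas and 4.03 times in normal tongue.

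Promoter sequences from RefSeq on GRCm38.p6, covering 250 bases before to 50 after the start of a gene, were at hand for 5 members (Snai1, Twist1, Twist2, Zeb2 and Vim) as 8 entries, 4 of them of Zeb2. Promoters are shown because the E-box is the element that SNAI, TWIST and ZEB proteins bind, and SNAIL is known to bind its own promoter. The E-box, CANNTG, reads the same on both strands. It was found in 1 of the 8 entries, that of Snai1, and in 72.3% of the 32851 promoter entries of the genome. The Snai1 match was CACCTG, which with its reverse complement CAGGTG is the E-box form that SNAI and ZEB proteins prefer, and which lies inside the general motif. Either form occurred in 20.2% of all entries. The match began 126 bases before the start of Snai1. In the Vim promoter no E-box was found, and the letters TATAAA, the core of a TATA box searched on both strands, began 32 bases before the start. That motif was in 13.6% of all entries. Capitals mark the E-box in the first sequence (chr2:167537945-167538244, plus strand) and the TATA letters in the second (chr2:13574061-13574360, plus strand), in GRCm38.p6 coordinates, which are not those of the deposited loci.
Snai1: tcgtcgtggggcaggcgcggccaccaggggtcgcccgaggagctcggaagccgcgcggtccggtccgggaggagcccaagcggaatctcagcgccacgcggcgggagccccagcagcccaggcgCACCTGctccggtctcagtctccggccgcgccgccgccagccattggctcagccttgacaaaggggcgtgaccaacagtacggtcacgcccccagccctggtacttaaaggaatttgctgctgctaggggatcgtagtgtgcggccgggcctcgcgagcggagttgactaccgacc
Vim: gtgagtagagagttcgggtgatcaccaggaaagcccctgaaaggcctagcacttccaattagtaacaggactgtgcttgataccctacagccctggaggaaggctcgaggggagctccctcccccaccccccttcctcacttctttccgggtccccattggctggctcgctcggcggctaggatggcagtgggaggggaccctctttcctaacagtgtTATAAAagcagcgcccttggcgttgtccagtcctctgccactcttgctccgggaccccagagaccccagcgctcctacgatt

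The ZEB factors, large zinc-finger and homeodomain repressors of epithelial genes, had nearly equal fold changes. In the authors' deposited table Zeb1 was listed at 2.35 FPKM in carcinomas and 5.46 FPKM in normal tongue, a log2 fold change of −1.22 ± 0.45 (p = 0.00738, q = 0.182). The authors' deposited table lists Zeb2 at 1.36 FPKM in carcinomas and 3.19 FPKM in normal tongue, a log2 fold change of −1.23 ± 0.47 (p = 0.00888, q = 0.207). Both intervals lay below 0, from −2.11 to −0.33 for Zeb1 and from −2.15 to −0.31 for Zeb2, and neither gene passed the q limit. The difference between them was 0.01 on the log2 scale, with an interval from −1.27 to 1.29 that also allows unequal changes of more than a doubling. The deposited loci are 18:5491499-5775466 for Zeb1 and 2:44839154-44969604 for Zeb2.

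The TWIST factors, basic helix-loop-helix proteins made mainly by mesenchymal cells, were low in both groups. Twist1 had 2.13 FPKM in carcinomas and 3.62 FPKM in normal tongue in the authors' deposited table (−0.77 ± 0.62 on the log2 scale, q = 1.00; locus 12:34642536-34644696). Twist2 had 1.26 FPKM in carcinomas and 1.89 FPKM in normal tongue there (−0.58 ± 0.72, q = 1.00; locus 1:93698054-93744604). The intervals ran from −1.98 to 0.44 for Twist1 and from −1.99 to 0.82 for Twist2, so neither direction can be read. The change of Snai2 exceeded that of Twist1 by 2.98 (95% interval 1.42 to 4.54) and that of Zeb1 by 3.43 (2.10 to 4.76).

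Taken by their summed FPKM, the 6 factors had a different make-up in the carcinomas. Their sum was 27.7 FPKM in carcinomas and 19.4 FPKM in normal tongue, computed from the authors' deposited table. Snai2 made up 70.8% of it in carcinomas and 21.8% in normal tongue. Zeb1, the leading factor of normal tongue, made up 8.47% in carcinomas and 28.1% in normal tongue. Twist1 accounted for 7.67% in carcinomas and 18.6% in normal tongue, and Zeb2 for 4.91% in carcinomas and 16.4% in normal tongue. The smallest share in both groups was that of Snai1, with 3.59% in carcinomas and 5.41% in normal tongue.

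**Figure D2:**
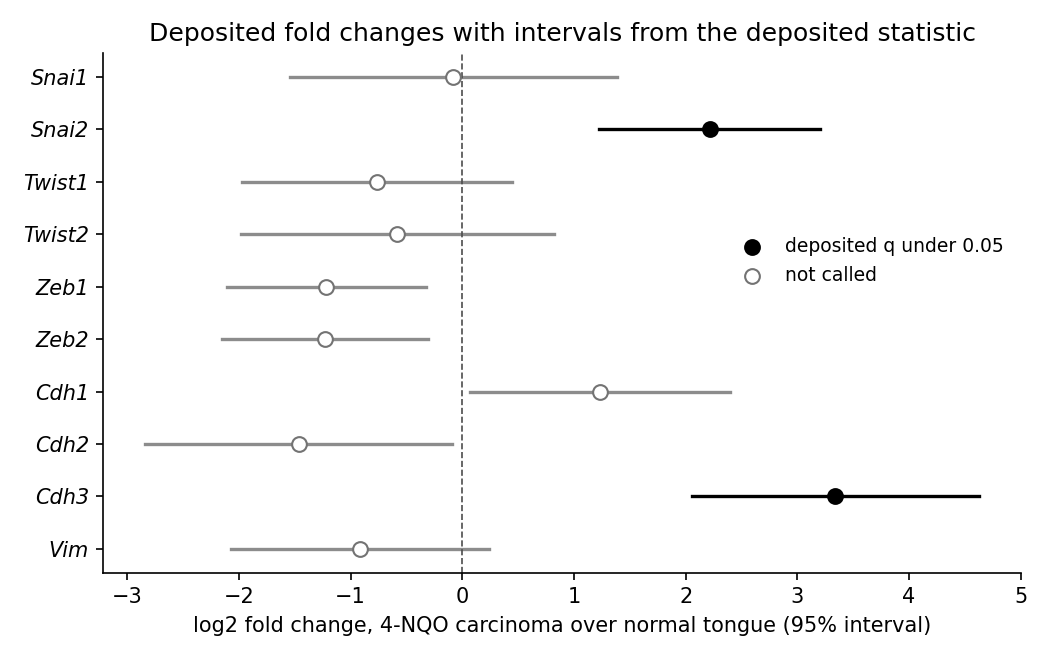
log2 fold changes of the 10 members, 4-NQO carcinoma over normal tongue, from the authors' deposited table, with 95% intervals from the deposited test statistic; filled points passed a q-value of 0.05. The intervals of Snai2 (1.22 to 3.20) and Cdh3 (2.05 to 4.63) lie farthest from 0, and those of Zeb1, Zeb2, Cdh2 and Cdh1 exclude 0 without passing the q limit.

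The cadherin values did not run in the direction of an exchange of E-cadherin for N-cadherin. The Cdh1 value was higher and the Cdh2 value lower in carcinomas, neither of them called, and Cdh3 rose 10.1-fold, the largest change among the 10 members. The authors' deposited table gives Cdh3 at 37.0 FPKM in carcinomas and 3.66 FPKM in normal tongue, a log2 fold change of 3.34 ± 0.66 (q = 4.62e-05, 95% interval 2.05 to 4.63). By the size of its statistic Cdh3 ranked 149 and Snai2 ranked 278 among tested genes with a finite fold. Cdh1 was listed in the authors' deposited table at 78.1 FPKM in carcinomas and 33.2 FPKM in normal tongue (1.23 ± 0.59, p = 0.0375, q = 0.507). Its interval ran from 0.07 to 2.40, and a log2 change of 1.91 would have been needed for a call. The authors' deposited table lists Cdh2 at 0.253 FPKM in carcinomas and 0.697 FPKM in normal tongue (−1.46 ± 0.70, p = 0.0370, q = 0.503), with an interval from −2.84 to −0.09. Only 4.35% of tested genes were lower than Cdh2 in carcinomas and 14.0% in normal tongue. Adding 1 FPKM to both groups brought its fold change to −0.44.

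The change of Cdh1 exceeded that of Cdh2 by 2.70 on the log2 scale (95% interval 0.90 to 4.50), and the change of Cdh3 exceeded that of Cdh1 by 2.11 (0.37 to 3.84). In FPKM, Cdh2 was 0.00324 of Cdh1 in carcinomas and 0.0210 of Cdh1 in normal tongue. Cdh3 was 0.474 of Cdh1 in carcinomas and 0.110 of Cdh1 in normal tongue. Of the summed FPKM of the 3 cadherins, Cdh1 made up 67.7% in carcinomas and 88.4% in normal tongue, Cdh3 32.1% in carcinomas and 9.74% in normal tongue, and Cdh2 0.219% in carcinomas and 1.86% in normal tongue. The sum itself was 115 FPKM in carcinomas and 37.6 FPKM in normal tongue.

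**Figure D3:**
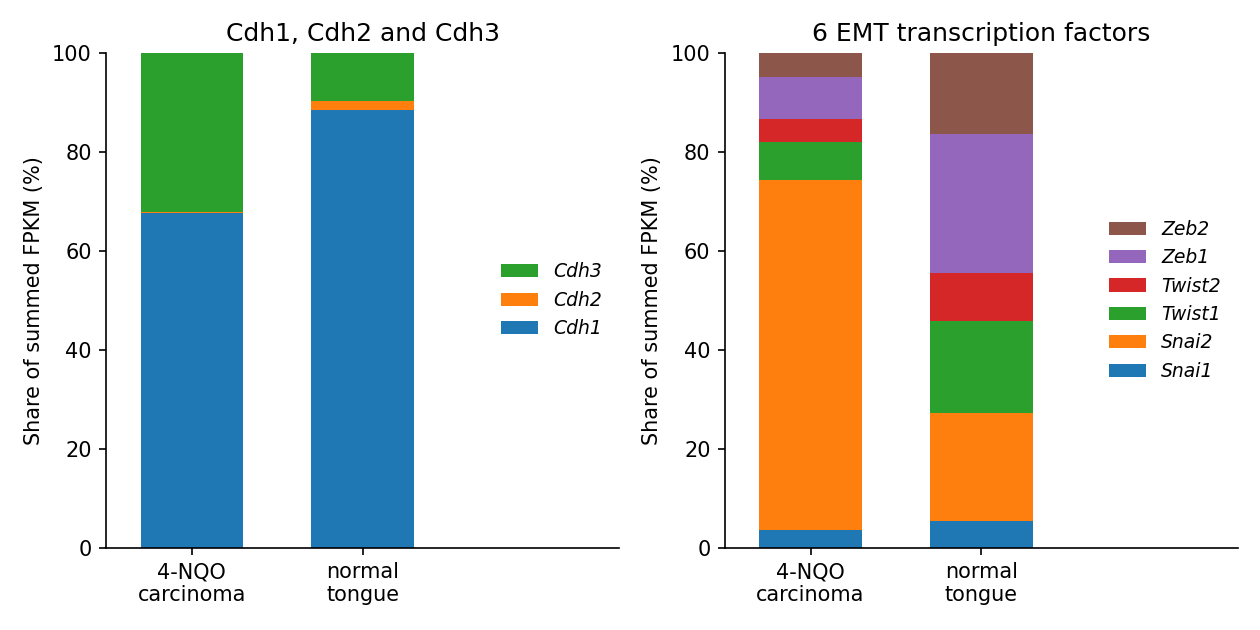
Shares of summed FPKM within the 3 cadherins (left panel) and the 6 transcription factors (right panel), with the 4-NQO carcinomas as the left bar and normal tongue as the right bar; shares come from 1 deposited value per group and carry no error. Cdh3 takes 32.1% of the cadherin sum in carcinomas against 9.74% in normal tongue, and Snai2 takes 70.8% of the factor sum against 21.8%.

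Cdh3 and Cdh1 are neighbours on chromosome 8. The authors' deposited table places Cdh3 at 8:109034791-109080808 and Cdh1 at 8:109127268-109194146, 46459 bases apart. Over the stretch from the start of Cdh3 to the end of Cdh1, 1 further gene was listed, 1110028F18Rik. It was not tested and stood at 0.0402 FPKM in carcinomas and 0.00499 FPKM in normal tongue. Cdh3 is listed with 2 RefSeq transcripts whose values the authors' deposited table does not separate. Cdh2 lies at 18:16747386-16967558 in the deposited table, and Vim at 2:13495938-13504453. The mouse build of these loci is not given in the sources used here.

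Vim was the most abundant member in both groups. The authors' deposited table lists it at 131 FPKM in carcinomas and 247 FPKM in normal tongue (−0.92 ± 0.59 on the log2 scale, q = 0.906), with an interval from −2.07 to 0.24. It stood above 96.5% of tested genes in carcinomas and above 97.8% in normal tongue. The FPKM of Vim was 1.68 times that of Cdh1 in carcinomas and 7.45 times that of Cdh1 in normal tongue, and the change of Cdh1 exceeded that of Vim by 2.15 (95% interval 0.51 to 3.79).

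Markers of several cell types differed in value beside these genes. In such bulk samples fewer cells of a type and less RNA per cell cannot be told apart. The background for the marker counts is 3.07% of all tested genes called higher and 3.19% called lower. The keratinocyte markers had a median log2 fold change of 1.32 over 10 tested genes in the authors' deposited table, 9 of them positive, 2 called higher (Dsg3 and Lamb3) and 0 lower, and their summed FPKM was 5705 in carcinomas and 2352 in normal tongue. The basal keratin Krt14, a further marker of the list, has the status HIDATA in place of OK and was not tested. It is listed at 0 in carcinomas and 750 FPKM in normal tongue, and that 0 is not read here as a level. Cdh1 lay −0.09 from that median, Snai2 0.89 above it and Cdh3 2.02 above it. The keratinocyte markers themselves ran from −1.53 to 2.57, and the median standard error of the list was 1.09. Snai2, at 2.21, lay inside that range, and Cdh3, at 3.34, above it. The 1 negative keratinocyte marker had an unadjusted p under 0.05. The fibroblast markers had a median of −0.96 over 10 tested genes, 8 of them negative and 2 called lower (Lum and Dpt), with a summed FPKM of 298 in carcinomas and 751 in normal tongue. Vim lay 0.04 above the fibroblast median, Twist1 0.19, Twist2 0.38 and Snai1 0.88 above it, Zeb1 −0.26 and Zeb2 −0.27 from it, and Cdh2 −0.50 from it. The part of cell make-up in the members' values was not tested.

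Among the other cell types that express Zeb, Vim or Cdh2, most markers were lower as well. Beside the counts that follow, 3.19% of all tested genes were called lower and 20.7% had an unadjusted p under 0.05. In the authors' deposited table all 8 endothelial markers had negative fold changes, their median was −1.07 with 1 called lower, and they summed to 65.2 FPKM in carcinomas against 129 FPKM in normal tongue. All 6 Schwann cell markers were negative as well (median −1.46, 1 called lower, 48.6 FPKM in carcinomas and 143 FPKM in normal tongue), and so were all 5 satellite cell markers (median −1.49, 0 called, 4 with an unadjusted p under 0.05, 14.4 FPKM in carcinomas and 31.8 FPKM in normal tongue). The 10 skeletal muscle markers had a median of −1.64, with 3 called lower and sums of 3681 FPKM in carcinomas and 11186 FPKM in normal tongue. Leukocyte and macrophage markers were mixed, 4 positive and 4 negative of 8, with 0 called and 1 at an unadjusted p under 0.05, a median of −0.17 and sums of 116 FPKM in carcinomas and 158 FPKM in normal tongue. Of the melanocyte markers, of a cell type that also expresses Snai2, 4 were tested, with 2 positive, 2 negative and 0 called. The 2 negative ones had an unadjusted p under 0.05 and the 2 positive ones did not. Those 4 summed to 2.11 FPKM in carcinomas and 4.18 FPKM in normal tongue.

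Of the 7 lists of the wider EMT network, 4 bear most directly on the members. The list of regulators that hold cells in the epithelial state had only positive fold changes. Of its 12 tested members, 2 rose and 0 fell by the q-values of the authors' deposited table. That was 16.7% higher, beside 3.07% of all tested genes, and 10 were not called. All 12 were positive, and the median was 0.79. The keratinocyte markers had a median of 1.32 with 9 of 10 positive, 1 of the 12 regulators (Trp63) stands among them too, and the part of epithelial content in these values was not tested. Elf3, an epithelial ETS factor, had 25.8 FPKM in carcinomas and 4.79 FPKM in normal tongue (2.43 ± 0.52, q = 0.000315). Ovol1, a zinc-finger repressor of mesenchymal genes, had 36.7 FPKM in carcinomas and 11.6 FPKM in normal tongue in the deposited table (1.66 ± 0.49, q = 0.0291). Klf4 had 172 FPKM in carcinomas and 119 FPKM in normal tongue and Klf5 had 68.1 FPKM in carcinomas and 41.9 FPKM in normal tongue, both factors of epithelial differentiation and growth and neither called.

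The other cadherins, 20 genes, had 10 tested members, of which the authors' deposited table called 0 higher and 1 lower, and their median was −1.27. Of all tested genes, 3.19% were called lower. The 10 untested ones reached at most 0.172 FPKM in any group. VE-cadherin, Cdh5, the endothelial cadherin, had 7.27 FPKM in carcinomas and 20.2 FPKM in normal tongue (−1.47 ± 0.43, q = 0.0279). Cdh5 is also the 1 called gene of the endothelial markers above, Cdh15 is among the satellite cell markers and Cdh19 among the Schwann cell markers, so those counts are not separate from these. T-cadherin, Cdh13, had 11.0 FPKM in carcinomas and 23.1 FPKM in normal tongue in the deposited table (q = 0.275), and the muscle precursor cadherin Cdh15 had 1.13 FPKM in carcinomas and 3.16 FPKM in normal tongue (q = 0.234). Over all 23 listed cadherins, Cdh3 made up 26.6% of the summed FPKM in carcinomas and 4.02% in normal tongue, Cdh1 56.1% in carcinomas and 36.5% in normal tongue, and Cdh2 0.181% in carcinomas and 0.766% in normal tongue.

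Genes that mesenchymal cells switch on were not called in either direction. Of 13 tested targets, 0 passed in the authors' deposited table, 10 were negative, the median was −0.44 and 2 had an unadjusted p under 0.05. A Benjamini-Hochberg adjustment over all tested genes also called 0. Over all tested genes 6.26% were called in either direction and 20.7% had an unadjusted p under 0.05. At those shares the lack of calls does not set the 13 targets apart from other genes. Galectin-1, Lgals1, had 97.6 FPKM in carcinomas and 215 FPKM in normal tongue (−1.14 ± 0.50, q = 0.385), and S100a4, a calcium-binding protein of fibroblasts and leukocytes, had 107 FPKM in carcinomas and 92.9 FPKM in normal tongue (0.20 ± 0.45, q = 1.00). The fibronectin gene Fn1, the target named most often beside Vim and singled out here after its values were seen, had 14.7 FPKM in carcinomas and 36.4 FPKM in normal tongue in the authors' deposited table (−1.31 ± 0.50, q = 0.195).

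A partial EMT programme, described in human head and neck carcinoma as matrix and adhesion genes raised in epithelial cells that keep epithelial markers, had more calls. Of its 24 tested members, 9 rose and 0 fell by the q-values of the authors' deposited table, 37.5% higher beside 3.07% of all tested genes, and the median was 0.57. The remaining 15 were not called. Of the 24, 9 were negative, 2 of these at an unadjusted p under 0.05. Mmp10, a stromelysin, had 10.4 FPKM in carcinomas and 0.0152 FPKM in normal tongue (9.42 ± 1.57, q = 3.77e-07), a fold that rests on a very low value in normal tongue. Inhba, the activin A subunit, had 19.4 FPKM in carcinomas and 0.458 FPKM in normal tongue in the deposited table (5.40 ± 0.72, q = 3.48e-11). Pthlh, the parathyroid hormone-related peptide, had 59.2 FPKM in carcinomas and 2.61 FPKM in normal tongue (4.50 ± 0.65, q = 1.40e-09). The urokinase gene Plau (3.27 ± 0.53) and the laminin chain Lama3 (3.24 ± 0.77) were also called, with deposited q-values of 1.49e-07 and 0.00194, as were Lamb3 and Tnc. Tgfbi, a secreted target of TGF-β, had 129 FPKM in carcinomas and 37.6 FPKM in normal tongue and was not called (q = 0.419), and Cav1, caveolin-1, had 41.3 FPKM in carcinomas and 79.3 FPKM in normal tongue (q = 0.554). Of the 24 genes, 1 (Lamb3) stands among the keratinocyte markers too, and laminin chains such as Lama3 are made by normal basal keratinocytes as well.

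**Figure D4:**
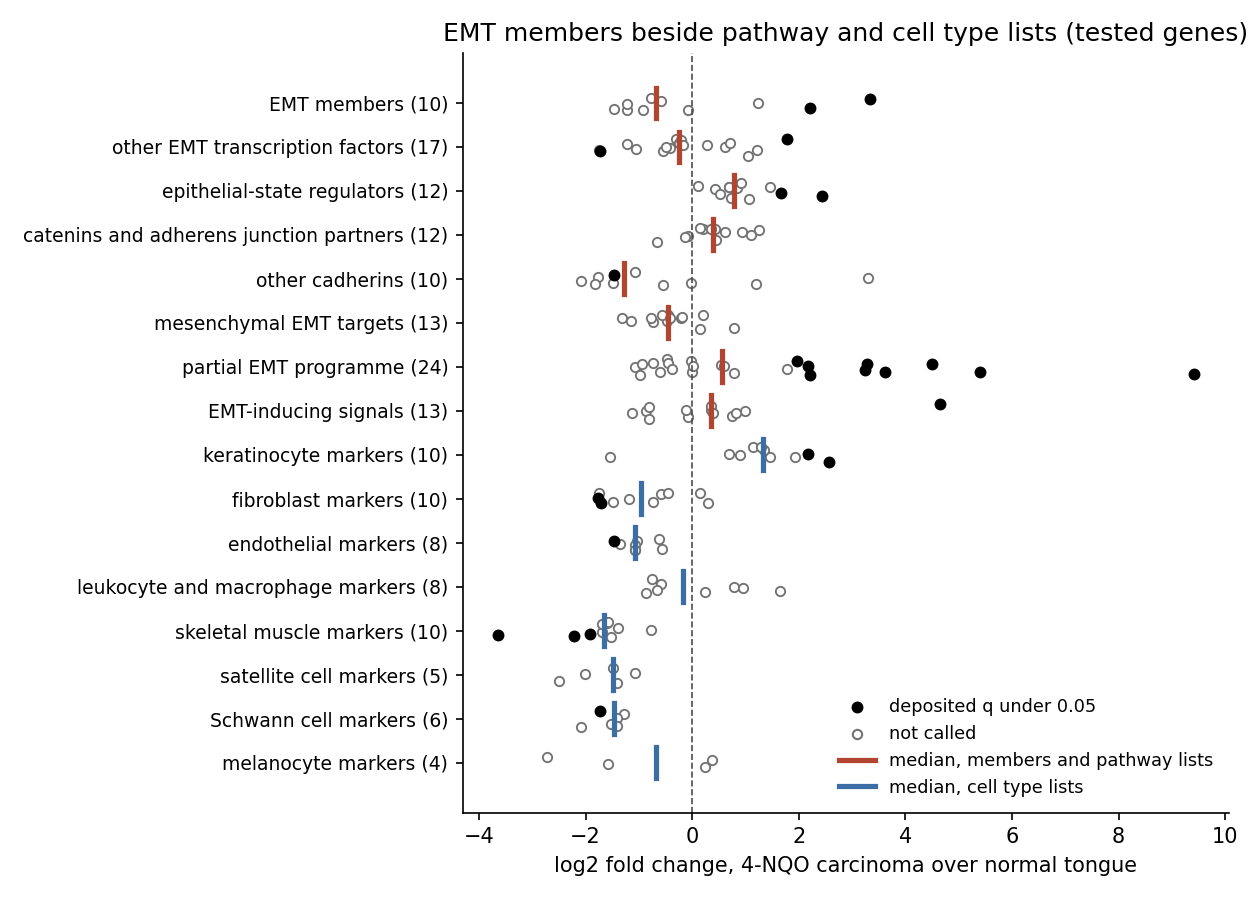
log2 fold changes, 4-NQO carcinoma over normal tongue, of every tested gene in the EMT set, the 7 network lists and the 8 cell type lists, from the authors' deposited table; filled points passed a q-value of 0.05, vertical bars are list medians, and numbers in brackets are tested genes. The EMT set spreads from −1.46 to 3.34, the keratinocyte median lies at 1.32, and the fibroblast median at −0.96.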

How the data were processed

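Poly(A) RNA libraries (Illumina TruSeq, per the labels' protocols) from 3 carcinomas and 5 normal tongues were grouped by sample titles. Per the submitters' processing notes the tools were GSNAP 2011.11.17 and edgeR and the build GRCh37, a human assembly, with no role given; the sources used here name neither the program behind the table nor its mouse build. The authors' deposited table gives 1 expression value per gene and group; its header names no unit, and the layout and sums of the values were taken to be those of FPKM. Read that way, the authors had scaled these FPKM values to transcript length and mapped fragments, and gave 1 value for all samples of a group, before the table was deposited. Per the file headers it also holds log2 fold changes (with a placeholder for infinite folds, so that column and the test statistic were recorded as a score), p-values and q-values. The deposited statistic is negative where the fold change is positive, so its size was used.

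The groups were not tested anew. A gene was called at a deposited q-value under 0.05, which matched the authors' call in every row. The standard error is the fold change divided by the statistic, and the 95% interval assumes a normal distribution; how far either reflects the spread between samples is not known. The authors' comparison cannot be refitted from group values, so the p-values may reflect technical spread in part. Locus starts were shifted to count from 1: 7152 RefSeq gene lengths equal end minus start, and 452 equal that plus 1. Members and lists were chosen with earlier results of these data known. Named genes were all 10 members and, per network list, up to 6 called genes by fold (1 FPKM or more in the higher group) and the 2 most abundant uncalled; Fn1, Pcdh7, Fat2, Lamb3, Tnc, Dsg3, Lum, Dpt, Krt14 and 1110028F18Rik were named after their values were seen; a few called genes of the lists are counted but not reported here by name. Calculations used Python 3.11.15, pandas 2.3.3 and scipy 1.17.1, and were tested on simulated data.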

Additional observations from a re-analysis of the deposited data

How the results depend on the processing

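The calls of Snai2 and Cdh3, and the lack of any member called lower, held at q limits of 0.10 and 0.01, with a Benjamini-Hochberg adjustment of the deposited p-values over the tested genes, with genes under 1 FPKM in both groups left out, and with fold changes re-centred on the median, which moved them by 0.04. That shift was smaller than the smallest member fold change, −0.08 for Snai1, so re-centring could turn no sign. A pseudocount added to both groups cannot turn a sign either, so the settings of 1 and 0.1 FPKM bear on size only. The fold change of Cdh2 went to −0.44 with a pseudocount of 1. At a q limit of 0.01 the counts were 310 higher and 261 lower over all genes, 1 higher among the epithelial-state regulators, 0 higher among the further transcription factors, 0 among the inducing signals and 0 lower among the other cadherins. The Benjamini-Hochberg adjustment gave 792 genes lower overall and 2 of the other cadherins lower, and the q limit of 0.10 also gave 2 of these. No replicate could be left out, since only group values were used. No paired analysis was possible because the columns hold 1 value per group. Depth is unknown, so nothing can be said of how it limits the members below 1 FPKM.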

Other observations

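Of 17 further EMT transcription factors and their ID inhibitors, the authors' deposited table called 1 higher and 1 lower. Of all tested genes, 3.07% were called higher and 3.19% lower there, and the median log2 fold change of the 17 was −0.25. Sox9, a factor of progenitor cells, had 5.77 FPKM in carcinomas and 1.67 FPKM in normal tongue there (1.79 ± 0.51, q = 0.0204). The most abundant uncalled members were the inhibitors Id1, at 69.8 FPKM in carcinomas and 80.9 FPKM in normal tongue, and Id3, at 44.9 FPKM in carcinomas and 63.0 FPKM in normal tongue. Among 13 signals that induce EMT, 1 was called in the deposited table, again beside 3.07% of all tested genes called higher. It was the cytokine Il6, at 1.30 FPKM in carcinomas and 0.0517 FPKM in normal tongue (4.66 ± 1.26, q = 0.0120). That fold rests on a very low value in normal tongue, and the median of the 13 was 0.35. The TGF-β receptor Tgfbr2, at 27.4 FPKM in carcinomas and 21.5 FPKM in normal tongue, and the signal transducer Smad4, at 13.7 FPKM in carcinomas and 14.8 FPKM in normal tongue, were not called.

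Of 12 catenins, nectins and related junction genes, 0 passed the authors' q-value limit in the deposited table and 2 had an unadjusted p under 0.05. A Benjamini-Hochberg adjustment over all tested genes called 0, and the median log2 fold change was 0.38. Among all tested genes 6.26% were called in either direction and 20.7% had an unadjusted p under 0.05, so these counts do not set the 12 apart. Plakoglobin, Jup, had 234 FPKM in carcinomas and 122 FPKM in normal tongue (0.93 ± 1.02), and β-catenin, Ctnnb1, had 160 FPKM in carcinomas and 139 FPKM in normal tongue (0.20 ± 0.72). Wider cadherin families were looked at after the other values were seen and are given as counts. Beside them, 3.07% of all tested genes were called higher. Of 39 tested protocadherins 1 was called in the authors' deposited table, Pcdh7, at 12.8 FPKM in carcinomas and 2.62 FPKM in normal tongue (2.28 ± 0.60, q = 0.00768), and the family's median was 0.01. Most of the 39 had standard errors between 3.88 and 82.4 on the log2 scale, beside a median of 0.53 over all tested genes. Their lack of a call therefore says little, and the family is not read here as unchanged. Of 6 tested FAT, dachsous and CELSR cadherins 1 was called, Fat2, an atypical cadherin of squamous epithelium, at 8.35 FPKM in carcinomas and 2.38 FPKM in normal tongue (1.81 ± 0.51, q = 0.0167), with a median of 0.75.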
